A study of Mus musculus with 45 samples.

Results

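The genes followed here are 5 genes of the primed epiblast, Fgf5, Pou3f1, Otx2, Sall2 and Cldn6, out of 18193 genes with a named probe set on the array. They were taken by symbol, and each gene was read from its brightest probe set, by the mean of the 45 arrays, with any other probe set kept as a check. Fgf5 (probe set 1438883_at, chromosome 5) and Pou3f1 (1460038_at, chromosome 4) have 2 probe sets each. Otx2 (1425926_a_at, chromosome 14), Sall2 (1416638_at, chromosome 14) and Cldn6 (1417845_at, chromosome 17) have 1. The choice of genes did not use measured values, but it was made with earlier results of these data known. The samples are male mouse embryonic stem cells (ESCs) of strain 129 and the embryoid bodies (EBs) grown from them in hanging drops, cell aggregates in which ESCs give rise to early tissues of the embryo. Of the 3 lines, 1 is labelled as silenced for Strip2 (KD), 1 carries a scrambled control (SCR) and 1 is wild type (WT). Each was measured before differentiation and after 4, 8, 12 and 16 days as EBs, by 3 arrays per line and stage, in 15 groups. The labels do not say how many clones stand behind the KD and SCR lines, nor that the 3 arrays of a group are separate cultures. The p-values therefore measure only the spread between these arrays, which may be technical, and the number of arrays limits the precision.

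After implantation the epiblast of the mouse embryo leaves the naive pluripotent state of early ESCs and becomes a polarised epithelium in the primed state, still pluripotent but ready to form the germ layers. EBs are known to pass through an epiblast-like stage on the way to differentiated tissue. Fgf5, a secreted fibroblast growth factor, is the classical marker of this epiblast and is switched off as the germ layers form. Pou3f1 (also called Oct6) and Otx2 are transcription factors, of the POU and the homeobox class, that act in the primed epiblast and later in neural tissue. Otx2 is also made by visceral endoderm, the layer that surrounds the epiblast. Sall2 encodes a zinc finger transcription factor of the spalt family, and Cldn6 a claudin of the tight junctions of early epithelia.

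All values are log2 signals of a probe set, which rank samples for 1 gene but cannot be set against those of another gene. Array medians lay between 5.02 and 5.18, and arrays of the same group correlated at 0.9888 to 0.9961 over probe sets. Strip2 itself had a dim probe set, at 2.66 to 3.86 over the arrays of the line labelled KD, 2.54 to 5.60 in SCR and 2.50 to 3.23 in WT. At no stage was it lower in the line labelled KD than in WT by the test, so the line is called KD-labelled here and every direction rests on its label. Against SCR it was lower in KD-labelled EBs of day 12 (-0.92, adjusted p = 0.0001) and day 16 (-1.56, adjusted p = 8.6e-09), days on which Strip2 was also higher in SCR than in WT EBs (1.55 and 1.97). KD minus WT on day 12 was 0.63 (adjusted p = 0.0061). The ESC markers were high in ESCs of all 3 lines: over the 9 ESC arrays Pou5f1 lay between 11.92 and 12.49, Sox2 between 11.46 and 12.05 and Zfp42 between 11.40 and 12.24. In KD-labelled EBs of all 4 days they were nearly as high, at 11.20 to 11.73, 11.43 to 12.04 and 11.61 to 12.05, so they tell ESCs from EBs in SCR and WT but not in the KD-labelled line. In cells measured in bulk, fewer cells of a type and less RNA per cell cannot be told apart.

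RefSeq (GRCm38.p6) gives windows of 250 bases before the start for 4 of the 5 genes, 8 windows in all, and Pou3f1 was not matched. The windows of Fgf5, Sall2 and Cldn6 and 1 of the 4 of Otx2, taken because it holds a motif match, are shown because these genes all had less signal in the KD-labelled ESCs than in those of SCR, so that their base composition and motifs can be compared. A window was searched on both strands for TAATCC, the core bound by OTX factors, for ATGCAAA, an octamer form bound by POU factors, and for CTTTGAT, bound by TCF/LEF factors. The OTX letters occur in 6.25% of 32841 windows of mouse genes, the octamer in 4.13% and the TCF/LEF letters in 3.21%. The 1 match among the members is in capitals, in Otx2 at 211 bases before the start, on the reverse strand as GGATTA.
Fgf5, chr5:98253934-98254183, forward strand: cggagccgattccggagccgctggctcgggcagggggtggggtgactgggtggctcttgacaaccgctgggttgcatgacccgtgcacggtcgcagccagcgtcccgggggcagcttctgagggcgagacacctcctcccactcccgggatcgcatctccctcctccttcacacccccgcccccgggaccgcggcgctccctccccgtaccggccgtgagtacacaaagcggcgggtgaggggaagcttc
Otx2, chr14:48665110-48665359, reverse strand: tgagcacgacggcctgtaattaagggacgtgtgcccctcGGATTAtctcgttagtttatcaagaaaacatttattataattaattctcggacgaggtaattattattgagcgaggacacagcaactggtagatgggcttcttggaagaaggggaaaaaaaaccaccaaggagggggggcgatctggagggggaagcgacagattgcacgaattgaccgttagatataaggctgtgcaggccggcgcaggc
Sall2, chr14:52316324-52316573, reverse strand: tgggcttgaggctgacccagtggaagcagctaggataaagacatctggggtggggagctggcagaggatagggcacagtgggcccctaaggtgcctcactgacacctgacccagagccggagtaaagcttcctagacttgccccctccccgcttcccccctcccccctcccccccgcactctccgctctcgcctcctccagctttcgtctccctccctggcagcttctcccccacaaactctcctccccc
Sall2, chr14:52328671-52328920, reverse strand: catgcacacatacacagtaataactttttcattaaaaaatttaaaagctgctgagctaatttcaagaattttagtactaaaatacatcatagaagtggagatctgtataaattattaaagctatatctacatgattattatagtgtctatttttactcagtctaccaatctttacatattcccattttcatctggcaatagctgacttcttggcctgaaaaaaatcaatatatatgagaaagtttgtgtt
Cldn6, chr17:23679115-23679364, forward strand: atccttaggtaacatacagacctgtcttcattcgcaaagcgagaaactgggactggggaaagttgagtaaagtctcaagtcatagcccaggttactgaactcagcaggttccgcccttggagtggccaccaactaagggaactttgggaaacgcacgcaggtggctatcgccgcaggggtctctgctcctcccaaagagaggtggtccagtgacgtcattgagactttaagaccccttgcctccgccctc
The Fgf5 window holds 24 CpG and is 70.8% G and C, against a median of 6 CpG (quartiles 2 and 16) and 52.4% over all windows. The Otx2 window shown holds 14 CpG, the other 3 of that gene 9, 8 and 6, and the Cldn6 window 9. The 2 Sall2 windows differ: the one at the downstream start holds 6 CpG at 64.4% G and C, the one at the upstream start 0 CpG at 28%. A match describes letters only, and the absence of a match in this window says nothing of the factor.

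Before differentiation KD-labelled cells had less signal than SCR cells for all 5 genes, where 11.3% of all genes were called lower (limma, adjusted p under 0.05). The log2 difference was -3.07 for Pou3f1 and -3.03 for Sall2, both transcription factors, -3.06 for the ligand Fgf5, -2.42 for the claudin Cldn6 and -1.23 for Otx2. Signals near or below the median of all values, 5.08, as for Fgf5 and Sall2 in KD-labelled ESCs and Fgf5 and Pou3f1 in control EBs of day 8, were not shown to be above background, so no fold is given and such differences describe signal only. The control lines differed from each other as well: 4 of the 5 genes were higher in SCR than in WT ESCs, where 4.43% of all genes were called higher. Against WT, 3 of the 5 were lower in KD-labelled ESCs, where 9.78% of all genes were called lower. In fits of the compared groups alone, the calls of Pou3f1 and Sall2 against WT were lost (adjusted p = 0.065 and 0.17), as were those of Fgf5, Pou3f1 and Sall2 between SCR and WT (adjusted p = 0.13, 0.21 and 0.17).

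Fgf5 stood at 3.56, 3.13 and 3.58 in the 3 KD-labelled ESC arrays, at 7.30, 6.52 and 5.62 in the SCR arrays and at 3.99, 5.35 and 3.49 in the WT arrays. The KD-labelled arrays lay below every SCR array and overlapped those of WT. The KD minus SCR difference was -3.06 (SE 0.43, adjusted p = 9.6e-07), while KD minus WT was -0.85 (SE 0.43, adjusted p = 0.19) and ran from -1.25 to -0.32 when single arrays were left out. SCR minus WT was 2.20 (adjusted p = 0.00067).

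Pou3f1 gave 7.40, 7.06 and 7.22 in KD-labelled ESCs, against 10.67, 10.32 and 9.89 in SCR and 8.98, 9.74 and 7.58 in WT. The 3 lines did not overlap, with KD-labelled cells lowest and SCR cells highest. Against SCR the KD difference was -3.07 (SE 0.38, adjusted p = 5.7e-08) and KD minus WT was -1.54 (adjusted p = 0.0027). The WT array 3, at 7.58, stood close to the KD-labelled arrays, and without it KD minus WT was -2.13 (without WT array 2, -1.05, adjusted p = 0.0499), while SCR minus WT was 0.93 (adjusted p = 0.155) in place of 1.53 (adjusted p = 0.0059). Without SCR array 1, SCR minus WT was 1.34 (adjusted p = 0.066).

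Otx2 was the least different of the 5 genes in ESCs, at 7.99, 7.83 and 8.26 in KD-labelled arrays, 9.31, 9.53 and 8.94 in SCR and 8.67, 8.88 and 8.35 in WT arrays. The KD-labelled arrays were below all others, though the gap to WT was narrow. The KD minus SCR difference was -1.23 (SE 0.44, adjusted p = 0.037), and this call did not survive leaving out any of 5 single arrays: the adjusted p was then between 0.051 and 0.118, for each KD-labelled array and for SCR arrays 1 and 2. It was also lost after quantile normalization (-1.15, adjusted p = 0.0503). KD minus WT was -0.61 (adjusted p = 0.40).

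Sall2 stood at 4.61, 4.12 and 4.81 in KD-labelled ESCs, at 7.94, 7.75 and 6.94 in SCR and at 5.52, 6.86 and 4.64 in WT ESCs. The KD-labelled arrays lay below all SCR arrays and overlapped with the lowest WT array. Against SCR the KD difference was -3.03 (SE 0.29, adjusted p = 4.1e-10) and KD minus WT -1.16 (adjusted p = 0.0037). The call against WT rested on WT array 2, without which KD minus WT was -0.57 (adjusted p = 0.103). SCR minus WT was 1.87 (adjusted p = 3.9e-05).

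Cldn6 gave 5.22, 5.56 and 5.80 in KD-labelled ESCs, against 8.30, 7.69 and 7.85 in SCR and 6.89, 6.91 and 6.73 in WT ESCs. The 3 lines formed separate levels with no overlap. The difference from SCR was -2.42 (SE 0.23, adjusted p = 3.7e-10), KD minus WT -1.32 (adjusted p = 6.4e-05) and SCR minus WT 1.10 (adjusted p = 0.0014). Cldn6 was the 1 gene of the 5 whose 3 ESC differences all kept their call when any single array was left out.

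**Figure D1:**
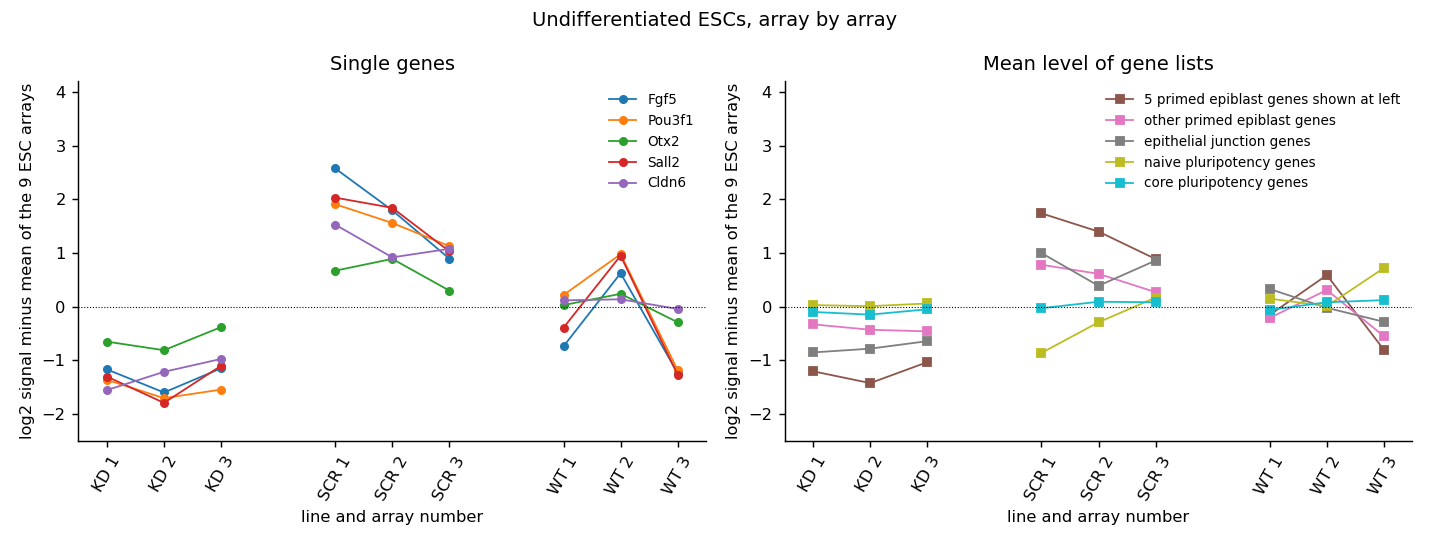
Each point is 1 of the 9 ESC arrays, as log2 signal minus the mean of those arrays on the vertical axis, for the single genes (left) and for the mean level of gene lists (right); lines only help the eye to follow a gene, since arrays of a group have no order. The KD-labelled arrays lie below the SCR arrays for all 5 genes, and in WT array 2 is the highest and array 3 the lowest for each. How many of all genes show these orders was not counted.

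Within the WT and SCR ESC groups the genes moved together from array to array. In WT, array 2 was the highest and array 3 the lowest for 5 of 5 genes, with 1.86 between them for Fgf5, 2.16 for Pou3f1 and 2.22 for Sall2. The spread was only 0.53 for Otx2 and 0.18 for Cldn6, so the order of these genes rests on small differences. In SCR, array 1 was the highest for 4 of the 5 genes and array 3 the lowest for 4. The share of all genes with such orders was not counted, so they may not be particular to these genes. The mean of 16 other genes of the primed epiblast followed: it was 7.52, 7.42 and 7.39 in KD-labelled ESCs, 8.63, 8.46 and 8.12 in SCR and 7.64, 8.16 and 7.30 in WT ESCs. The mean of 16 naive pluripotency genes was 10.31, 10.29 and 10.34 in KD-labelled ESCs and ran the other way in the controls, at 9.42, 9.99 and 10.45 in SCR and 10.43, 10.29 and 11 in WT ESCs. SCR array 1, the highest for most of the 5 genes, was thus the lowest for naive genes, and WT array 3, the lowest for the 5 genes, was the highest. The mean of 9 core pluripotency genes stayed between 11.03 and 11.30 on these 9 arrays. The part of these list levels in the values of the 5 genes was not tested.

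Over the first 4 days the lines took different courses. All 5 genes rose in KD-labelled cells, where 12.4% of all genes were called higher, by log2 differences from 1.87 for Otx2 to 4.45 for Fgf5. In SCR cells the test called a rise for Fgf5 and a fall for Pou3f1, with 42.5% of all genes called in either direction. In WT cells Fgf5, Sall2 and Cldn6 rose and Pou3f1 fell, with 41.7% of all genes called.

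At day 4 Pou3f1 gave 9.79, 9.31 and 9.21 in KD-labelled EBs, against 5.15, 5.29 and 5.03 in SCR and 5.73, 5.73 and 6.46 in WT EBs. The KD-labelled EBs were far above both controls, in reverse of the order in ESCs. Day 4 minus ESC was 2.21 in KD-labelled cells (adjusted p = 2.3e-05), -5.14 in SCR (adjusted p = 4.4e-14) and -2.79 in WT (adjusted p = 8.6e-08). At day 4 KD minus SCR was 4.28 (SE 0.38, adjusted p = 5e-12) and KD minus WT 3.46 (adjusted p = 1e-09). It was the only one of the 5 genes called between KD-labelled and SCR EBs at that day, where 42.4% of all genes were called. On the same arrays the naive list averaged 9.5 in KD-labelled EBs, against 5.48 in SCR and 6.06 in WT EBs. Core pluripotency genes averaged 10.75 in KD-labelled EBs, against 7.66 in SCR and 7.94 in WT EBs, and 13 genes of primitive streak and mesoderm 5.08, against 7.58 and 7.83 in the same controls. The part of these list levels in the Pou3f1 values was not tested.

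For Fgf5 the day 4 arrays gave 8.03, 7.67 and 7.92 in KD-labelled EBs, 7.84, 7.82 and 7.08 in SCR EBs and 6.77, 8.12 and 7.98 in WT EBs. The groups overlapped, and KD minus SCR was 0.29 (SE 0.43, adjusted p = 0.66) and KD minus WT 0.25 (SE 0.43, adjusted p = 0.71). The rise since the ESC stage was 4.45 in KD-labelled cells (adjusted p = 7e-10), 1.10 in SCR (adjusted p = 0.038) and 3.35 in WT (adjusted p = 4.1e-08). The SCR call was lost without SCR array 2 or 3 of the ESCs or array 1 or 2 of day 4, with adjusted p between 0.070 and 0.277.

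Otx2 stood at 9.91, 9.72 and 10.07 in KD-labelled EBs of day 4, against 8.59, 9.19 and 9.15 in SCR and 7.80, 8.94 and 8.90 in WT. The KD-labelled arrays were above all control arrays, where in ESCs they had been below. The rise in KD-labelled cells was 1.87 (adjusted p = 0.0014), while the step was -0.28 in SCR (adjusted p = 0.66) and -0.09 in WT (adjusted p = 0.91). KD minus WT at day 4 was 1.35 (adjusted p = 0.013), but 0.98 (adjusted p = 0.115) without WT array 1, and KD minus SCR was 0.92 (adjusted p = 0.093). At this day 2 of the 5 genes, Pou3f1 and Otx2, were higher in KD-labelled than in WT EBs, where 19.2% of all genes were called higher.

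For Sall2 and Cldn6 no difference of KD-labelled EBs from a control was called at day 4. Sall2 was at 7.19, 6.95 and 6.82 in KD-labelled EBs of day 4, 7.23, 7.26 and 7.59 in SCR and 7.08, 7.31 and 7.26 in WT. Cldn6 gave 7.44, 7.64 and 7.74 in KD-labelled EBs, 7.78, 8.33 and 7.84 in SCR and 7.49, 7.74 and 8.08 in WT. The KD-labelled arrays of both genes lay below SCR and overlapped with WT, the widest difference being -0.38 (SE 0.23) for Cldn6 against SCR. The rise in KD-labelled cells was 2.47 for Sall2 (adjusted p = 4.3e-08) and 2.08 for Cldn6 (adjusted p = 1.4e-08), and in WT 1.54 (adjusted p = 3.4e-05) and 0.93 (adjusted p = 0.0012). In SCR the steps were -0.18 for Sall2 (adjusted p = 0.67) and 0.04 for Cldn6 (adjusted p = 0.92).

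The difference of the first step itself was tested between lines. It is the day 4 difference of 2 lines minus their ESC difference, so it uses the ESC arrays again. For Fgf5, Sall2 and Cldn6 KD minus SCR at day 4 was not called (0.29, -0.37 and -0.38). For these genes the first-step difference from SCR thus largely restates the ESC difference. For Otx2 KD minus SCR at day 4 was not called either (0.92, adjusted p = 0.093). Its ESC difference was -1.23, so its first-step difference restates this in part. Against SCR the first-step difference was called for all 5 genes, where 13.7% of all genes had a larger step in KD-labelled cells. The values were 7.35 for Pou3f1 (SE 0.53), 3.35 for Fgf5 (SE 0.61), 2.66 for Sall2 (SE 0.41), 2.16 for Otx2 (SE 0.62) and 2.04 for Cldn6 (SE 0.33). Against WT the first-step difference was called for Pou3f1 (5.00, adjusted p = 1.4e-09), Otx2 (1.96, adjusted p = 0.014) and Cldn6 (1.15, adjusted p = 0.0061), where 14.6% of all genes had a larger step. The Otx2 value was 1.59 (adjusted p = 0.064) without WT array 1 of day 4. Between the controls, SCR minus WT was called for Fgf5 (-2.25, adjusted p = 0.026), Pou3f1 (-2.34, adjusted p = 0.0077) and Sall2 (-1.73, adjusted p = 0.011), where 4.99% of all genes were called in either direction. Of these the calls of Fgf5 and Sall2 were lost without WT ESC array 3 or SCR ESC array 1, and that of Fgf5 also without 4 other single arrays. In fits of the compared groups alone none of the 3 was called (adjusted p = 0.17 for Fgf5, 0.088 for Pou3f1 and 0.19 for Sall2).

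**Figure D2:**
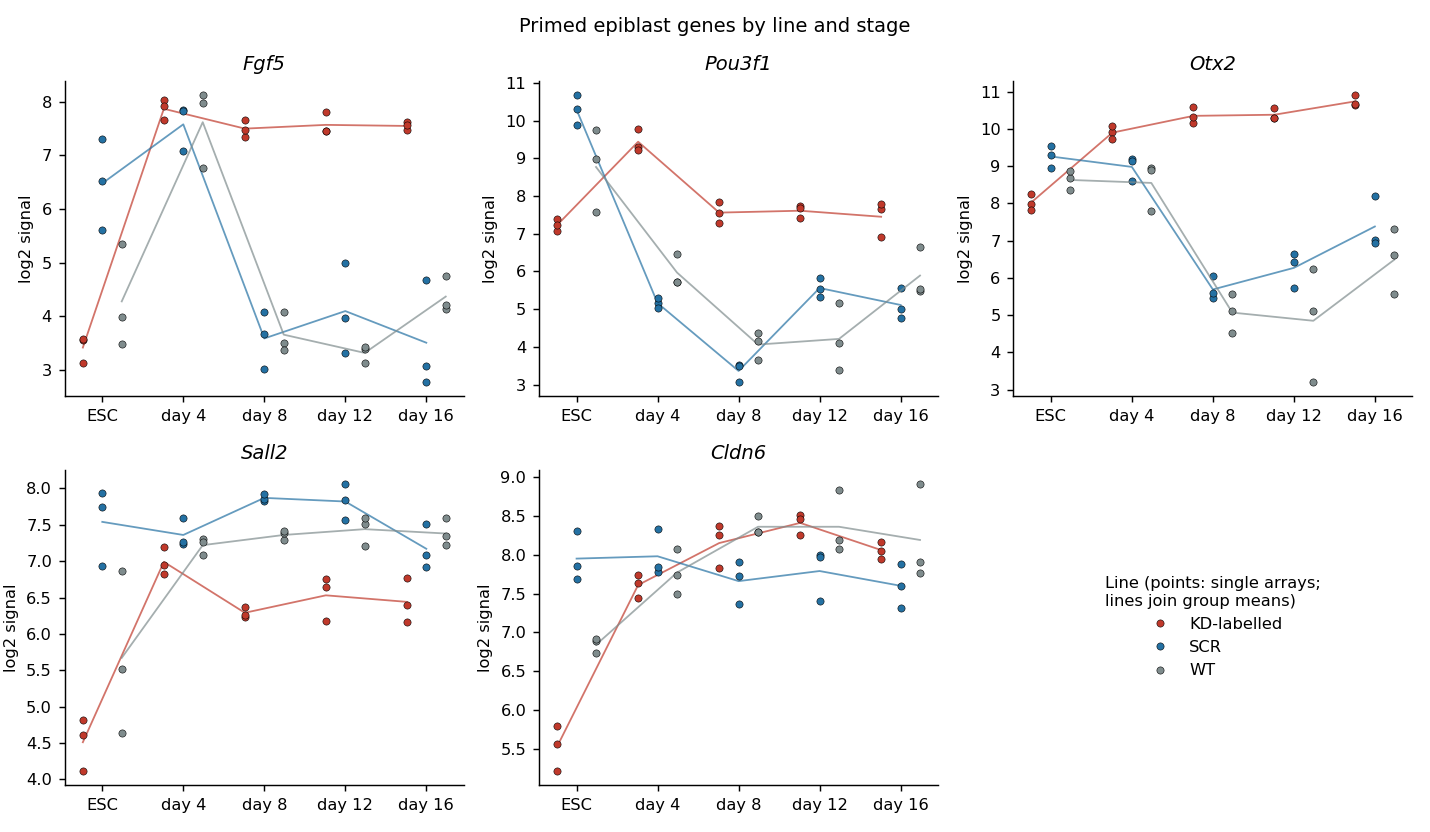
The 5 panels show the log2 signal of each gene on every array (points) against stage, with lines through the group means of KD-labelled, SCR and WT cells. From day 8 on, Fgf5 stays near its day 4 level in KD-labelled EBs and Otx2 somewhat above its own. Both genes are lower in both controls than in KD-labelled EBs, and Sall2 is lowest in KD-labelled EBs.

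Between day 4 and day 8 Fgf5, Pou3f1 and Otx2 fell in both controls, while in KD-labelled EBs the step was -0.38 for Fgf5 (adjusted p = 0.69) and 0.45 for Otx2 (adjusted p = 0.62). That is, 3 of the 5 genes fell in SCR EBs, where 21% of all genes were called lower, and the same number in WT EBs, where 24% were called lower. In KD-labelled EBs the 1 fall was that of Pou3f1, with 5.73% of all genes called lower. Cldn6 rose in WT EBs by 0.59 (adjusted p = 0.037), a call that was lost without any of 5 single arrays.

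Fgf5 read 7.35, 7.66 and 7.48 in KD-labelled EBs of day 8, against 4.09, 3.02 and 3.67 in SCR and 4.09, 3.51 and 3.38 in WT. The KD-labelled arrays lay above all control arrays, and the controls overlapped with the KD-labelled ESCs. Day 8 minus day 4 was -3.99 in SCR (adjusted p = 1.4e-09) and -3.96 in WT (adjusted p = 1.4e-09). KD minus SCR at day 8 was 3.90 (SE 0.43, adjusted p = 9.3e-10) and KD minus WT 3.84 (adjusted p = 1.5e-09). On day 12 it gave 7.45, 7.81 and 7.45 in KD-labelled arrays, 3.32, 5.00 and 3.97 in SCR and 3.40, 3.43 and 3.13 in WT EBs. On day 16 it gave 7.62, 7.47 and 7.57 in KD-labelled arrays, 4.68, 3.07 and 2.78 in SCR and 4.14, 4.21 and 4.75 in WT EBs. The KD-labelled arrays stayed within 7.35 to 7.81 from day 8 to day 16 and never overlapped a control. The gap to SCR was 3.47 at day 12 and 4.04 at day 16, and KD minus WT was 4.25 and 3.19, all called.

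Otx2 gave 10.15, 10.58 and 10.32 in KD-labelled EBs of day 8, against 5.45, 5.59 and 6.04 in SCR and 5.12, 4.52 and 5.56 in WT. Against SCR the KD difference was 4.66 (SE 0.44, adjusted p = 2.1e-11) and KD minus WT 5.28 (adjusted p = 9.3e-13). These were the widest differences of the 5 genes at that day. On day 12 it gave 10.29, 10.55 and 10.29 in KD-labelled arrays, 5.74, 6.63 and 6.43 in SCR and 5.11, 6.24 and 3.21 in WT EBs. On day 16 it gave 10.64, 10.67 and 10.90 in KD-labelled arrays, 7.01, 8.19 and 6.95 in SCR and 5.56, 7.30 and 6.61 in WT EBs. The KD-labelled level of day 16 was the highest of the 15 groups, and every control array stayed below the KD-labelled arrays.

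KD minus SCR for Otx2 was 4.11 at day 12 and 3.35 at day 16 (adjusted p = 3.9e-10 and 3.1e-08). KD minus WT was 5.52 and 4.25 (adjusted p = 2.8e-13 and 1.9e-10). The WT rise of Otx2 between day 12 and day 16, 1.64 (adjusted p = 0.011), was 0.82 (adjusted p = 0.29) without the dim WT array 3 of day 12 and 1.23 (adjusted p = 0.14) without WT array 2 of day 16. KD minus WT at day 12 was 4.70 without WT array 3 and 6.22 without WT array 2. The mean of 15 neural genes was 5.11, 5.93 and 4.75 in WT EBs of day 12. It was 5.96, 6.74 and 6.15 in SCR of day 16 and 5.76, 6.6 and 5.88 in WT of day 16. In KD-labelled EBs it was 4.91 to 5.06 on day 12 and 4.92 to 5.06 on day 16. Array 2 was the highest in each of these control groups for this list and for Otx2. In SCR EBs of day 12 the list gave 5.47, 5.3 and 5.44, so array 2 was its lowest there but the highest for Otx2. The part of neural cells in the Otx2 values was not tested. Otx2os1, the antisense neighbour of Otx2, chosen after its values were seen, had a dim probe set at 3.88 ± 0.04 in KD-labelled EBs of day 8, 3.16 ± 0.31 in SCR and 3.23 ± 0.27 in WT (SD, n = 3). In ESCs, where Otx2 was lowest in KD-labelled cells, the Otx2os1 signal was 4.05 ± 0.07 in these, 3.67 ± 0.22 in SCR and 3.65 ± 0.1 in WT. In KD-labelled EBs of day 16 the Otx2os1 signal was 4.11 ± 0.2, near its ESC level.

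Pou3f1 gave 7.56, 7.28 and 7.83 in KD-labelled EBs of day 8, against 3.51, 3.07 and 3.49 in SCR and 4.15, 3.66 and 4.37 in WT. It had fallen in all 3 lines since day 4, by 1.88 in KD-labelled EBs (adjusted p = 0.00049), by 1.80 in SCR (adjusted p = 0.00015) and by 1.91 in WT (adjusted p = 6.1e-05). Against SCR the KD difference was 4.2 (adjusted p = 4.8e-12) and KD minus WT 3.50 (adjusted p = 4.5e-10), where the other probe set gave 0.77 against SCR. The KD-labelled arrays were then at 7.73, 7.43 and 7.68 on day 12 and 7.65, 6.92 and 7.79 on day 16. SCR gave 5.83, 5.32 and 5.53 on day 12 and 4.77, 5.56 and 5.00 on day 16, and WT 4.10, 5.15 and 3.38 on day 12 and 5.49, 6.64 and 5.53 on day 16. The KD-labelled EBs stayed above both controls with no overlap, by 2.05 and 2.34 over SCR and 3.40 and 1.57 over WT, all called.

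From day 8 on Sall2 was lower in KD-labelled EBs than in both controls. It gave 6.23, 6.26 and 6.37 in KD-labelled EBs of day 8, against 7.83, 7.85 and 7.93 in SCR and 7.29, 7.39 and 7.41 in WT. Against SCR the KD difference was -1.58 (SE 0.29, adjusted p = 1.6e-05) and KD minus WT -1.08 (adjusted p = 0.0021). On day 12 it gave 6.18, 6.65 and 6.76 in KD-labelled arrays, 7.84, 7.57 and 8.06 in SCR and 7.21, 7.51 and 7.60 in WT EBs, and on day 16 it gave 6.4, 6.16 and 6.77 in KD-labelled arrays, 7.09, 7.51 and 6.92 in SCR and 7.22, 7.59 and 7.34 in WT EBs. The KD-labelled arrays were below all control arrays on each of these days. The gap to SCR was -1.29 (adjusted p = 0.00025) in EBs of day 12 and -0.73 (adjusted p = 0.027) in those of day 16, and KD minus WT was -0.91 (adjusted p = 0.0085) and -0.94 (adjusted p = 0.0059). The day 16 call against SCR was lost without KD-labelled array 1 or 2 or SCR array 2 (adjusted p 0.062 to 0.129) and after quantile normalization (-0.58, adjusted p = 0.085), and the day 12 value against WT was -0.74 (adjusted p = 0.061) without KD-labelled array 1.

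Cldn6 was called in 1 of its 6 comparisons with the controls from day 8 on. The KD-labelled arrays were at 7.83, 8.37 and 8.26 on day 8, 8.51, 8.46 and 8.25 on day 12 and 8.17, 7.95 and 8.05 on day 16. Over the same days SCR gave 7.91, 7.72 and 7.36, then 7.41, 7.99 and 7.97, then 7.88, 7.60 and 7.31. WT gave 8.29, 8.50 and 8.29, then 8.19, 8.07 and 8.83, then 7.90, 7.76 and 8.91. The KD-labelled arrays lay above SCR on days 12 and 16 and overlapped with WT on all 3 days. The gap to SCR was 0.49 (adjusted p = 0.075) in EBs of day 8, 0.62 (adjusted p = 0.023) in those of day 12 and 0.46 (adjusted p = 0.079) in those of day 16. The day 12 call was lost without KD-labelled array 1 or 2 or SCR array 1, with adjusted p of 0.060 to 0.162. KD minus WT was -0.21 (SE 0.23), 0.04 and -0.13, none called.

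Counted over the 5 genes, KD minus SCR gave 3 higher and 1 lower at day 8, 4 and 1 at day 12 and 3 and 1 at day 16, where 28%, 31% and 39.8% of all genes were called higher and 24.7%, 24.6% and 26.8% lower. KD minus WT gave 3 higher and 1 lower on each of these days, where 26%, 27.1% and 34.6% of all genes were called higher and 23.9%, 23.6% and 26.1% lower. The KD-labelled arrays enter both comparisons, so these counts are not independent. Calls were so frequent at these stages that being called sets no gene apart, and the size and the direction of the values carry the description. After day 8 no step of a KD-labelled group was called for the 5 genes by limma, nor did any reach an unadjusted p under 0.05, with 1% of all genes called between days 8 and 12 and 0.495% between days 12 and 16. Asked whether KD minus SCR changed over the 5 stages, the F test was called for all 5 genes, where 58.5% of all genes were called.

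**Figure D3:**
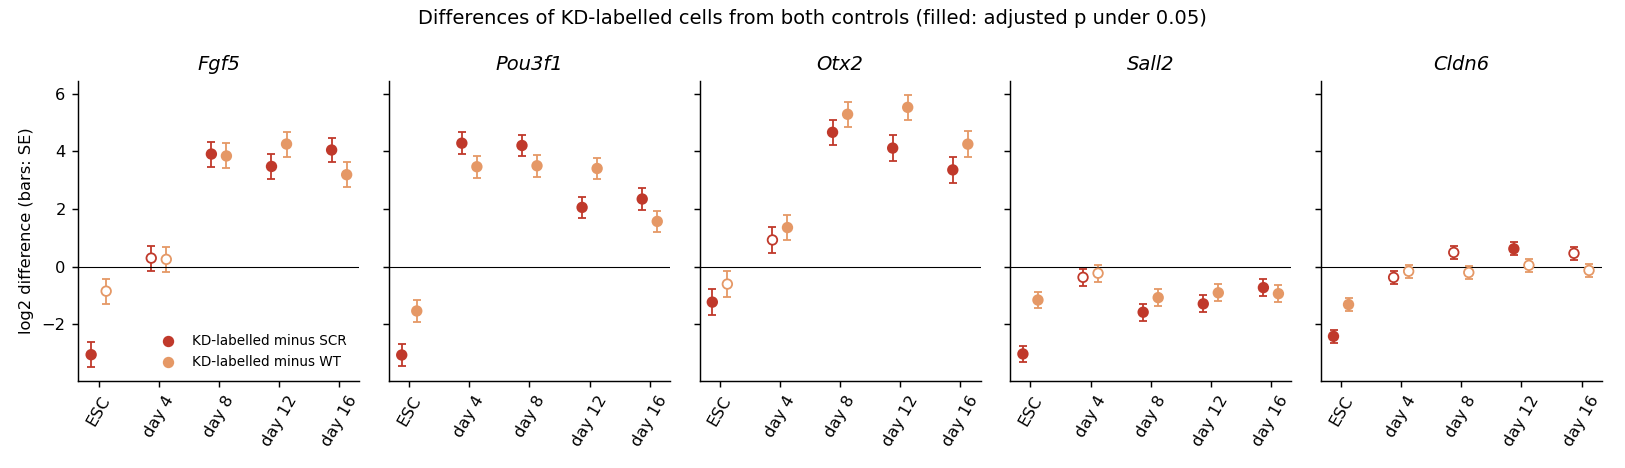
Each point is the log2 difference of KD-labelled cells from SCR (red) or WT (orange) at 1 stage, with its standard error; filled points passed an adjusted p of 0.05. Fgf5, Pou3f1 and Otx2 run from below 0 in ESCs to between 1.57 and 5.52 from day 8 on, Sall2 stays at or below -0.73 outside day 4, and Cldn6 lies between -0.38 and 0.62 from day 4 on.

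SCR minus WT was called for none of the 5 genes by limma at days 4, 8 and 16, where an unadjusted p under 0.05 was reached by Pou3f1, by Cldn6, and by Pou3f1 and Cldn6, and where 1.93%, 6.99% and 8.11% of all genes were called. At day 12 Otx2 was higher in SCR by 1.41 (adjusted p = 0.025) and Pou3f1 by 1.35 (adjusted p = 0.011), where 7.05% of all genes were called higher. Without WT array 3 of that day neither was called, with 0.59 for Otx2 (adjusted p = 0.44) and 0.94 for Pou3f1 (adjusted p = 0.15), and the call was also lost for Otx2 without SCR array 2 or 3 and for Pou3f1 without WT array 1 or SCR array 1. Neither was called in fits of the compared groups alone (adjusted p = 0.21 for Otx2 and 0.064 for Pou3f1), and the other Pou3f1 probe set gave -0.10 (adjusted p = 0.80).

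From day 8 on the second probe sets of Fgf5 and Pou3f1 were likewise called higher in KD-labelled EBs than in both controls, over a narrower range. The other Fgf5 probe set read 4.84, 4.57 and 4.62 in KD-labelled ESCs, 5.55, 5.11 and 4.72 in SCR and 4.79, 4.49 and 4.45 in WT. There KD minus SCR was -0.45 (SE 0.21, adjusted p = 0.13) and KD minus WT 0.10 (adjusted p = 0.83), so the ESC difference of Fgf5 was not called on it, nor was its first-step difference of KD minus SCR (0.58, adjusted p = 0.17). At day 8 it gave a KD minus SCR of 1.24 (adjusted p = 3.5e-06), at day 12 1.46 and at day 16 1.45, all called. The other Pou3f1 probe set read 6.27, 6.0 and 6.38 in KD-labelled ESCs, 7.80, 7.61 and 7.53 in SCR and 6.52, 7.19 and 6.27 in WT ESCs. On it KD minus SCR was -1.43 (adjusted p = 1.2e-07) in ESCs, 1.55 (adjusted p = 4.4e-09) in EBs of day 4 and 0.77 (adjusted p = 0.00042) in those of day 8, while KD minus WT in ESCs was -0.44 (adjusted p = 0.091).

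The late changes of Pou3f1 in the controls were called on 1 of its 2 probe sets. From day 8 to day 12 SCR EBs rose by 2.20 (adjusted p = 4.1e-05) on the brighter one and gave -0.02 (adjusted p = 0.97) on the other. From day 12 to day 16 WT EBs rose by 1.68 (adjusted p = 0.0019) on the brighter one and gave -0.04 (adjusted p = 0.96) on the other. The falls between days 4 and 8 in the controls were -0.33 in SCR and -0.22 in WT on the other probe set and not called there.

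**Figure D4:**
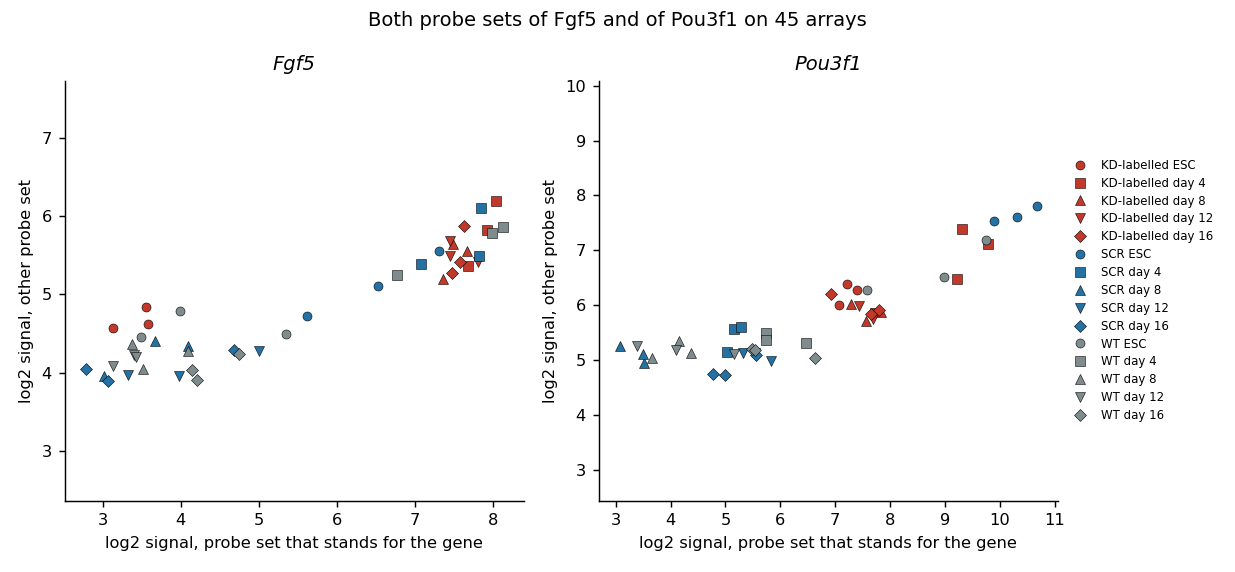
Each point is 1 of the 45 arrays, with the log2 signal of the probe set that stands for the gene on the horizontal axis and that of the other probe set on the vertical axis, for Fgf5 (left) and Pou3f1 (right). The KD minus SCR difference of ESCs is -3.06 on the horizontal and -0.45 on the vertical axis for Fgf5, and -3.07 and -1.43 for Pou3f1.

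Other genes of the primed epiblast were lower with the 5 in KD-labelled ESCs. Of 16 measured genes of that list 9 fell against SCR and 1 rose, with a median of -0.93, beside 11.3% lower, 12.3% higher and a median of 0.03 over all genes. The kinase gene Pim2 fell by 2.39, the activin antagonist Fst by 2.28, the Wnt effector Lef1 by 2.18 and Igfbp3, which encodes a binding protein of insulin-like growth factors, by 1.97 (log2). The 1 rise was that of Etv4, an ETS factor downstream of FGF signals, by 1.0. Against WT 4 of the 16 fell and 1 rose, where 9.78% of all genes were called lower. Between SCR and WT 7 were higher in SCR, where 4.43% of all genes were called higher. At day 8 of the same list 9 rose against SCR and 4 fell, where 28% of all genes were called higher and 24.7% lower. The median was 0.74 beside 0.07 over all genes. The zinc finger factors Zic5 and Zic2 rose by 5.18 and 3.57, the DNA methyltransferase Dnmt3b by 3.37 and the epithelial factor Grhl2 by 2.90.

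Genes of epithelial junctions were lower in the same ESCs, 11 of 14 against SCR with a median of -1.29, where 11.3% of all genes were called lower. They include Cldn7, another claudin, at 5.83 ± 0.25 in KD-labelled and 9.20 ± 0.50 in SCR ESCs (SD, n = 3, difference -3.37, adjusted p = 5e-14), occludin (Ocln, -2.89), the splicing regulator Esrp1 (-2.78) and desmoplakin (Dsp, -2.53). Against WT 7 of the 14 fell, where 9.78% of all genes were called lower. The controls differed too. Cldn7, Ocln, Esrp1 and Dsp were all called higher in SCR than in WT ESCs (1.18, 1.08, 0.63 and 1.01), where 4.43% of all genes were called higher. The mean of the list was 7.75, 7.82 and 7.96 in KD-labelled ESCs, 9.60, 8.99 and 9.46 in SCR and 8.93, 8.58 and 8.32 in WT, 3 levels with no overlap, as for Cldn6. At day 8, 8 of the 14 rose against SCR, where 28% of all genes were called higher. Among them was Cldn4 (2.20), and Dsp fell (-2.48). The list then averaged 9.72 ± 0.14 in KD-labelled arrays, 9.01 ± 0.16 in SCR and 9.55 ± 0.07 in WT EBs (SD, n = 3 each).

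The wider families of the 5 genes were counted too. Among 53 measured members of the FGF, POU, OTX, SALL and claudin families the median difference was 0.04 in KD-labelled against SCR ESCs. There 2 rose and 7 fell, where 11.3% of all genes were called lower. The widest were those of Cldn7, Fgf13 (-2.11), Fgf15 (-1.65) and Fgf17 (-1.33), and Fgf15 is also on the epiblast list. At day 8, 12 rose and 9 fell, where 28% of all genes were called higher and 24.7% lower, among them Pou5f1, the core pluripotency factor (6.83), and Fgf4, the FGF of the naive state (6.82), Cldn4, which was higher, and the endothelial claudin Cldn5, which was lower (-2.08). Of 14 receptors, ETS factors and feedback genes of FGF signalling, 2 rose and 2 fell in ESCs, beside that same ESC share. They were Etv4 at 1.0, Fgfr4 at 0.90, Spry1 at -0.79 and Il17rd at -0.64. At day 8, 8 rose and 4 fell, where 28% of all genes were called higher and 24.7% lower. Among them were the ETS factor Etv5 at 2.87, the FGF antagonists Spry4 at 2.41 and Il17rd at 1.73 and the phosphatase Dusp4 at 1.49. Several lists of this text share genes, among them Grhl2, Etv4, Cldn4, Cldn7, Pou5f1, Fgf4 and Lhx1. Counts of different lists are therefore not independent.

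Markers of other states moved in the same samples. Of 16 naive genes 4 rose and 2 fell in KD-labelled against SCR ESCs, with Tbx3 at 2.61, Esrrb at 1.15, Dppa3 at -2.14 and Klf5 at -0.72, and of 9 core genes the 1 call was Lin28a (-0.96). In that comparison 11.3% of all genes were called lower. At day 8 all 16 naive and all 9 core genes were higher, with medians of 4.15 and 5.11, where 28% of all genes were called higher. The naive list then averaged 10.08 ± 0.06 in KD-labelled arrays, 5.47 ± 0.23 in SCR and 5.85 ± 0.12 in WT EBs, and a list of 14 fibroblast and mesenchyme genes 5.59 ± 0.12, 10.50 ± 0.24 and 10.77 ± 0.04 in the same lines (SD, n = 3 each). Fgf5, Pou3f1 and Otx2 were thus high in EBs that were also high for naive genes and low for mesenchyme genes. The part of these cells in their values was not tested.

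Otx2 and Cldn6 are also made outside the epiblast, so the lists of those tissues were read beside them. Their day 8 counts stand beside 28% of all genes called higher and 24.7% lower in KD minus SCR. The day 4 counts stand beside 42.4% called in either direction. The ESC counts stand beside 11.3% called lower and the share called higher that is given above with the epiblast list. Of 16 visceral endoderm genes 7 rose in KD-labelled against SCR ESCs, among them the factors Gata6 (2.34) and Sox17 (1.70), while Otx2 and Cldn6 were lower. At day 8, 9 of them rose and 5 fell, with the endocytic receptor genes Cubn at 5.80 and Amn at 3.35, Lhx1 at 2.39 and the plasma protein gene Afp at -2.62. The list averaged 7.98 ± 0.09 in KD-labelled arrays, 7.28 ± 0.15 in SCR and 7.52 ± 0.10 in WT EBs of that day (SD, n = 3 each). At day 4 it averaged 6.43 ± 0.17 in KD-labelled arrays, 7.0 ± 0.04 in SCR and 7.08 ± 0.07 in WT. At day 16 these means were 8.08 ± 0.05, 8.04 ± 0.16 and 7.9 ± 0.09. The Otx2 arrays of KD-labelled EBs lay above all control arrays on both of these days. Of 15 neural genes 4 rose and 2 fell at day 8, with the neuronal gene Stmn2 at 5.52, Hesx1 at 2.25, Tubb3 at 2.02 and the forebrain factor Lhx2 at -4.91, and the list's mean was 4.95 ± 0.05, 4.74 ± 0.07 and 4.59 ± 0.07 in the same lines. The part of either tissue in the Otx2 level was not tested. In ESCs 1 neural gene rose and 2 fell. Of 13 genes of primitive streak and mesoderm 1 rose in KD-labelled against SCR ESCs. At day 4, 1 rose and 12 fell, with a median of -2.62, and at day 8, 6 rose and 3 fell, with a median of 0.21. Of 8 trophoblast genes 1 rose in ESCs, and 3 rose and 3 fell at day 8. Of the 14 fibroblast and mesenchyme genes 3 rose and 2 fell in ESCs, while at day 8, 1 rose and 13 fell, with a median of -5.30.

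**Figure D5:**
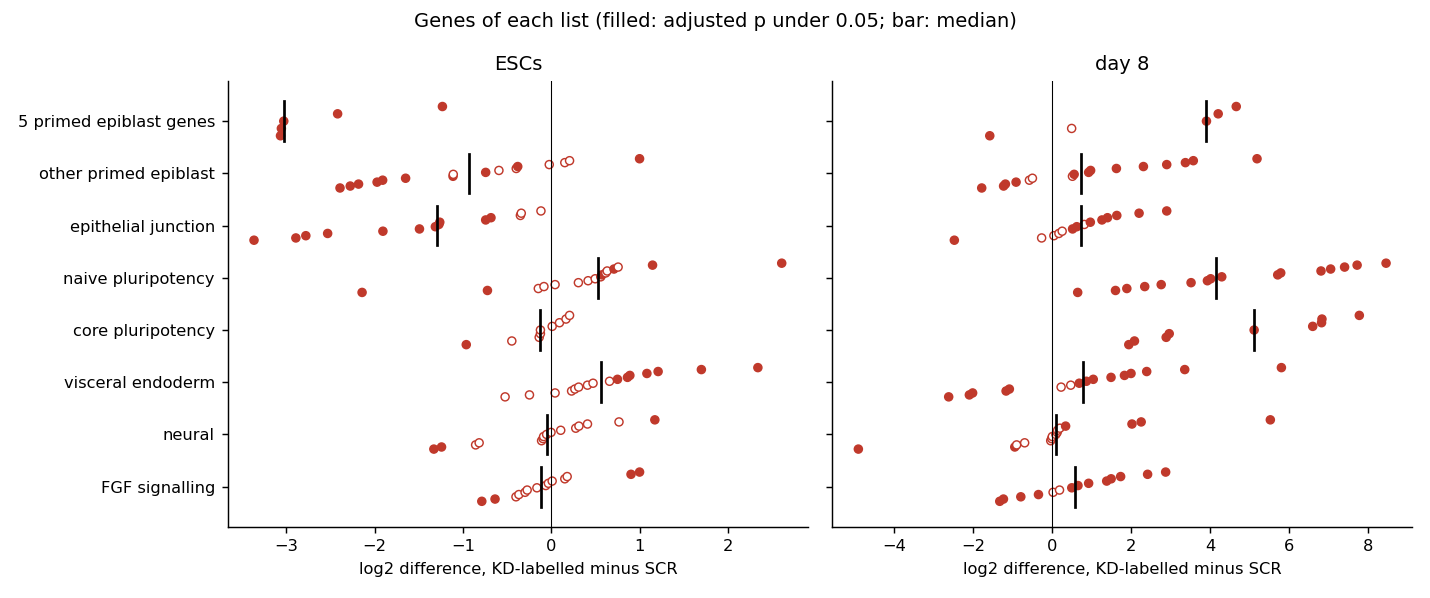
Each point is a gene of the list named at the left, placed by its log2 difference of KD-labelled minus SCR in ESCs (left) and at day 8 (right); filled points passed an adjusted p of 0.05 and the bar is the median. In ESCs the 5 genes, the other epiblast genes and the junction genes have medians of -3.03, -0.93 and -1.29, and at day 8 the naive and core lists lie highest, at 4.15 and 5.11. Genes shared between lists, such as Grhl2, appear in each of them.

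Ordered by group mean, Fgf5 split the 15 groups into 7 high and 8 low ones, with a gap of 2.11 between SCR ESCs (6.48 ± 0.84) and WT EBs of day 16 (4.37 ± 0.33). The high groups were all 4 KD-labelled EB stages, the day 4 EBs of both controls and SCR ESCs, and 12 of the 14 neighbours in the order overlapped in their arrays. Pou3f1 ran from 10.29 ± 0.39 in SCR ESCs to 3.36 ± 0.25 in SCR EBs of day 8, so its extremes lay in 1 line, with a gap of 1.26 below the KD-labelled ESCs (7.23 ± 0.17). The 4 highest groups of Otx2 were the 4 KD-labelled EB stages, from 10.74 ± 0.14 to 9.90 ± 0.18, and none of their arrays overlapped the next group, SCR ESCs (9.26 ± 0.30). For Sall2 and Cldn6 the KD-labelled ESCs were the lowest group, at 4.51 ± 0.36 and 5.53 ± 0.29 (SD, n = 3 each), with WT ESCs next above. For Sall2, 13 of the 14 neighbours overlapped, so most of that order is within the spread of the arrays.

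Over the 15 group means Fgf5 and Otx2 correlated at 0.84, Pou3f1 and Otx2 at 0.76 and Sall2 and Cldn6 at 0.73, while Fgf5 and Sall2 gave -0.01 and Pou3f1 and Sall2 -0.43. Within KD-labelled cells, over 5 stages, Fgf5 and Sall2 gave 0.98, and within WT Pou3f1 and Cldn6 gave -0.96. These points share lines and stages and are a description. Among 9096 genes above the median level, the genes most like Fgf5 over the 15 group means were Acsl4 (0.94), Zdhhc6 (0.94), Fkbp3 (0.92), Ermard (0.90) and Gstk1 (0.90). Most like Pou3f1 were Bspry (0.97), Pim2 (0.96), Map7d2 (0.95), Lefty1 (0.95) and Bid (0.94), and most like Otx2 were Nampt (0.97), Jakmip1 (0.96), Dcaf17 (0.96), Vbp1 (0.96) and Klf15 (0.95). For Sall2 they were Zfp608 (0.94), Setd7 (0.93), Zfp946 (0.92), Kbtbd2 (0.91) and Sertad4 (0.91), and for Cldn6 Tor2a (0.94), Slc39a8 (0.91), Patj (0.91), Pls3 (0.88) and Cldn7 (0.88).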

How the data were processed

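Expression was measured on Affymetrix mouse expression arrays in 45 samples, 3 per line and stage. The deposited values were log2 signals of 45037 probe sets, made by the authors with Affymetrix Expression Console, Partek 6.6 and RMA per the submitters' processing notes, which give no role or order. They ran from 1.82 to 14.26. Of the probe sets 34945 had 1 gene symbol, 932 several and 9160 none, which left 18193 genes, each read from its brightest probe set. Groups came from the sample titles, and the first 8-day array of each line, tagged as ESC in another label, was kept at day 8. All arrays were fitted in 1 model of 15 groups with limma 3.58.1 in R 4.3.3 (30 residual and 5.17 prior degrees of freedom). Calls were made at 0.05 on limma's p-values, adjusted by Benjamini and Hochberg's method in each comparison across the whole table of genes, and every adjusted p in the text is of this kind. At most 2.22% of values were identical between arrays of a group. The fit was tested on simulated data.

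The members and lists were chosen with earlier results of these data known. Besides the members, the text names Strip2, up to 4 called genes of a list with the widest KD minus SCR difference in ESCs and at day 8, and for each member the 5 genes most like it over the group means. The same-numbered arrays deviated together, each correlation over 0.1, in SCR minus WT of ESCs, day 8 and day 12 and in the KD step between days 12 and 16. Alternatives were other scalings, a filter on dim genes, other probe sets, array weights, fits of the compared groups alone, the chip number as a replicate block and leaving out each array.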

Additional observations from a re-analysis of the deposited data

Results flagged for a closer look

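The first step, day 4 minus ESC, differed between lines by limma's interaction term, which uses the ESC arrays of the ESC comparisons again. For KD minus SCR the difference was 3.35 for Fgf5, 7.35 for Pou3f1, 2.16 for Otx2, 2.66 for Sall2 and 2.04 for Cldn6. For KD minus WT it was 5.0 for Pou3f1, 1.96 for Otx2 and 1.15 for Cldn6. For SCR minus WT it was -2.25 for Fgf5, -2.34 for Pou3f1 and -1.73 for Sall2. The difference of KD minus SCR over the 5 stages gave an F of 50.8 for Fgf5, 63.8 for Pou3f1, 31.3 for Otx2, 12.3 for Sall2 and 30.3 for Cldn6, where 58.5% of all genes were called. Groups of 3 arrays are too small to test single arrays as outliers.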

How the results depend on the processing

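With the chip number as a replicate block, no call of the 5 genes changed, and KD minus SCR in ESCs kept its count of 5 (Fgf5 -3.06). Every group holds the same chip numbers, so the block cannot change a difference, only its standard error. It fits a shift of each chip number that all groups share, so it cannot decide whether arrays are paired in a single comparison. The mean of all probe sets gave 1 called gene in SCR minus WT at day 12 in place of 2. Array weights gave 2 genes in KD minus SCR at day 4 and 2 in KD day 8 minus day 4 (1 each in the full fit), 1 in SCR minus WT at day 8 (0) and 1 in SCR day 4 minus ESC (2), and 0.07 for Otx2 in WT day 4 minus ESC. Fits of the compared groups alone, with fewer samples, gave 1 gene in KD minus WT (3) and 1 in SCR minus WT (4) in ESCs, 3 in KD minus SCR at day 4 (1), 2 in SCR minus WT at day 8 (0) and 0 at day 12 (2), 3 in KD day 8 minus day 4 (1), 1 in WT day 16 minus day 12 (2) and 0 in the first step of SCR minus WT (3). Cyclic loess turned Cldn6 in KD minus WT at day 12 to -0.03. The other probe set gave 0.10 for Fgf5 in KD minus WT ESCs, and for Pou3f1 -0.10 in SCR minus WT at day 12, -0.02 in SCR day 12 minus day 8 and -0.04 in WT day 16 minus day 12. Leaving out single arrays gave Cldn6 -0.10 to 0.28 in KD minus WT at day 12, -0.35 to 0.23 at day 16 and -0.14 to 0.21 in SCR day 4 minus ESC. It gave Fgf5 -0.18 to 0.50 in KD minus WT at day 4, Otx2 -0.28 to 0.29 in WT day 4 minus ESC and -0.57 to 0 in the first step of SCR minus WT, and Sall2 -0.48 to 0.02 in SCR day 4 minus ESC. Counts then ran from 1 to 2 in KD minus WT at day 4, SCR day 4 minus ESC and WT day 16 minus day 12, from 0 to 1 in SCR minus WT at days 8 and 16, from 0 to 3 at day 12 and from 1 to 3 in its first step. The shares of all genes called under these settings are not given beside these counts. A changed count therefore cannot be told from a general change in the number of calls. The causes were not tested. Of the single-gene values without 1 array, 764 kept direction and side of the threshold, 42 lost and 4 gained a call and 12 reversed. At day 16 the median of all genes in KD minus SCR was 0.167, with 59.7% of calls higher, against 0.25 and 65.8% after median centring and 0.047 and 50.5% after cyclic loess.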
